A study of Caenorhabditis elegans with 4 samples.

Results

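The X chromosome sites described here are 289 peaks of REC-8, a cohesin subunit made in the germline of Caenorhabditis elegans, that were called on X and recovered in both ChIP replicates. They were chosen from 1762 peaks on X in the series-wide peak list, out of 7834 peaks in all. Each shares at least 1 bp with a peak of the replicate 1 list and with a peak of the replicate 2 list. The overlap with both replicates is thus the rule of selection and not a result. The autosomal sites set beside them were chosen in the same way and number 1204 of 6069 peaks.

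The series holds 2 samples of chromatin immunoprecipitated with an affinity-purified rabbit polyclonal antibody against REC-8 (ChIP replicates 1 and 2) and 2 samples of input DNA. All 4 samples came from whole hermaphrodites of the strain fem-2(b245), genotype fem-2(b245)III, young adults with a germline, kept at 20 °C per the series' design text. FEM-2 is a phosphatase needed for male fate, and every sample carried the mutation, so no wild type enters. REC-8 is known chiefly from germ cells, whereas whole animals also bring somatic chromatin, and the share of germ cells was not measured. Whether the replicates were grown as separate cultures is not given, and no value of the input samples is used below.

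Cohesin is a ring that keeps sister chromatids joined after replication, and REC-8 is the kleisin that closes this ring in meiosis. In this worm meiosis proceeds with further kleisins, COH-3 and COH-4, and REC-8 is the one that holds sisters until the second division. X differs from the autosomes in several ways: its genes are largely silent in early germ cells, its left end carries the region that pairs homologous X chromosomes, and in the soma of hermaphrodites a condensin-based complex is loaded on it at dedicated recruitment elements to lower its transcription. The positions of these elements, genes and the genome sequence of the files' build were not used here, so sites are given by WS220 coordinates, with no sequence.

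Of the X peaks, 16.4% met both replicates (exact 95% interval 14.7 to 18.2), against 19.8% of autosomal peaks (18.8 to 20.9) and a background of 19.1% over all nuclear peaks. The autosomal shares ran from 18.1% on chromosome V (15.8 to 20.5) to 21.4% on chromosome IV (19.1 to 23.8). X had the lowest share of the 6 chromosomes, but its interval overlapped that of chromosome V and those of chromosomes I, II and III, though not that of IV. These intervals, like all others given for shares and medians, cover counting error only and treat peaks as independent. A range given after a ratio sets each end of the X interval against the opposite end of the autosomal one. Such a range is wider than a 95% interval of the ratio. With 1 X against 5 autosomes no test over chromosomes can give a p under 0.167, so X is described by its place in the order of the 6 chromosomes and no test was made. Per length, the X sites numbered 16.3 per Mb, fewer than on chromosome III with 18.8 and chromosome I with 18.3, and more than the 14.6 of the pooled autosomes.

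The X sites scored higher than the autosomal ones in the authors' peak score, most of all around the 90th percentile. A score here is the peak caller's own value for a peak, whose meaning the files leave unexplained, as they do the way in which the series-wide list joins the replicates. The lowest X site scored 1.57, the median 42.0 (exact interval of the median 39.0 to 47.4) and the highest 204. The autosomal sites ran from 3.29 through a median of 36.7 (35.0 to 38.3) to 183. The ratio of X to autosomal scores was 1.27 at the lower quartile (29.8 against 23.4), 1.14 at the median, 1.24 at the upper quartile (71.2 against 57.2) and 1.71 at the 90th percentile (140.5 against 82.1). X was the highest of the 6 chromosomes at each of these points. At the median chromosome IV came close with 40.5 (35.9 to 43.8). The intervals of chromosomes I, II and V overlapped that of X as well, and chromosome III stood below it with 34.8 (31.4 to 37.6). The direction at the median turned when replicate 1 was not required. The longer replicate 2 list then let in 1235 X sites, so replicate and list length cannot be told apart. Over peaks required to meet replicate 2 alone, the ratio of X to autosomal medians was 0.873 (0.795 to 0.992). Over peaks required to meet replicate 1 alone it was 1.13 (0.986 to 1.34). With both replicates required it was 1.14 (1.02 to 1.35), and with replicate lists of equal length 1.06 (0.918 to 1.22). At the median the ranges of several alternatives thus include 1, though they are wider than 95% intervals. At the 90th percentile the 5 autosomes lay between 69.8 on chromosome III and 85.6 on chromosome IV.

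**Figure D1:**
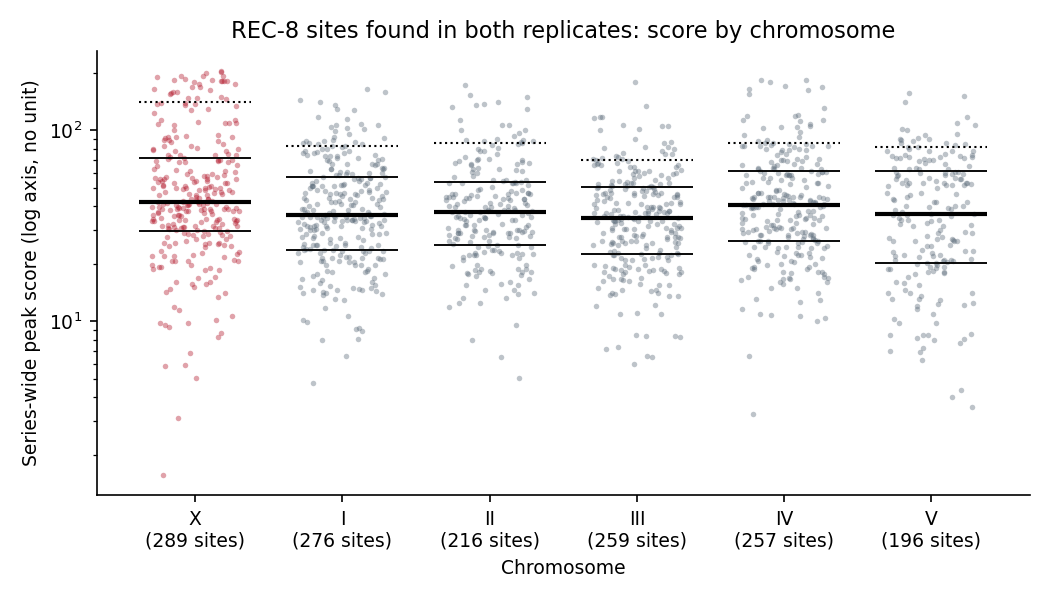
Series-wide peak score (log axis, no unit) of every site found in both replicates, by chromosome, 1 point per site. Thick lines are medians, thin lines quartiles and dotted lines 90th percentiles; the X dotted line, at 140.5, stands above those of the 5 autosomes, which lie between 69.8 and 85.6.

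The difference was widest at scores of 100 and above, a limit chosen after the values were seen. Of all sites found in both replicates 7.5% reached it. On X it was 47 of 289 sites, or 16.3% (12.2 to 21.0), against 65 of 1204 autosomal sites, or 5.40% (4.19 to 6.83), a ratio of 3.01. With a limit of 80 the ratio was 1.99 (1.32 to 2.94), and with a limit of 150 it was 6.94 (2.77 to 17.9). Single autosomes held 8 such sites on V, 9 on III, 13 on II, 15 on I and 20 on IV. At 150 and above X had 25 sites against 15 on the 5 autosomes together, of which 8 lay on chromosome IV. Below 100 the medians of X and the pooled autosomes lay closer together, at 38.4 for the remaining X sites and 35.1 for the remaining autosomal sites. In the band from 50 to 100 lay 23.9% of X sites (19.1 to 29.2) and 26.8% of autosomal sites (24.3 to 29.4). In the band from 25 to 50 the shares were 41.9% (36.1 to 47.8) on X and 40.2% (37.4 to 43.0) on the autosomes. Scores under 25 were found at 18.0% of X sites (13.7 to 22.9) and 27.6% of autosomal sites (25.1 to 30.2). Single autosomes ran from 22.6% on IV to 35.2% on V.

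The strong X sites were also wider than the strong autosomal sites. The median width of X sites was 610 bp (567 to 648), against 529 bp (515 to 550) for autosomal sites, and the 90th percentiles were 1819 and 1098 bp. The ratio of the medians was 1.15 (1.03 to 1.26). It was 1.02 (0.975 to 1.08) over peaks required to meet replicate 2 alone and 1.11 (0.970 to 1.21) over peaks required to meet replicate 1 alone. Both these ranges, set from opposite interval ends, include 1. Sites of 1000 bp or more, 14.0% of all sites found in both replicates, made up 23.5% of X sites (18.8 to 28.9) and 11.7% of autosomal sites (9.95 to 13.7), a ratio of 2.01. With peaks under 1 kb apart merged this ratio fell to 1.12 (0.882 to 1.41), a range that includes 1. Single autosomes ran from 9.78% on I to 13.4% on II. Among sites scoring 100 or more the median width was 1498 bp on X and 652 bp on the autosomes, and the medians of single autosomes lay between 592 bp on III and 702.5 bp on IV. Both limits were passed by 30 X sites (10.4%, 7.11 to 14.5) and by 13 autosomal sites (1.08%, 0.576 to 1.84), a ratio of 9.61 (3.87 to 25.1), while the background over all sites was 2.88%. The ratio was 4.81 (2.28 to 10.1) with peaks under 1 kb apart merged and 4.51 (2.38 to 8.55) with limits of 80 and 800 bp. Of these 13, chromosome IV had 6, I had 4, II had 2, V had 1 and III had 0.

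On X the median width was larger in each higher band of score. The X sites scoring under 25 had a median width of 455.5 bp, those from 25 to 50 had 552 bp, those from 50 to 100 had 642 bp, those from 100 to 150 had 915 bp and those from 150 up had 2084 bp. On the pooled autosomes the same bands had medians of 512.5, 514.5, 562, 651.5 and 652 bp. In the band from 100 to 150 chromosome IV came close to X, with 877 bp (12 sites, against 22 on X). From 150 up chromosome IV had 583.5 bp (8 sites), and the highest autosomal median was 924 bp on I (2 sites). Across sites Spearman's rho between score and width was 0.45 on X (289 sites) and 0.19 on the pooled autosomes (1204 sites), with single autosomes between 0.06 on II and 0.31 on IV. Sites of a chromosome share their libraries and the same calling, so these correlations are descriptions and carry no p. Altogether the X sites covered 257420 bp, or 1.45% of the X extent, against 0.962% of the autosomal extent; the autosome with the highest coverage was I with 1.23%.

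**Figure D2:**
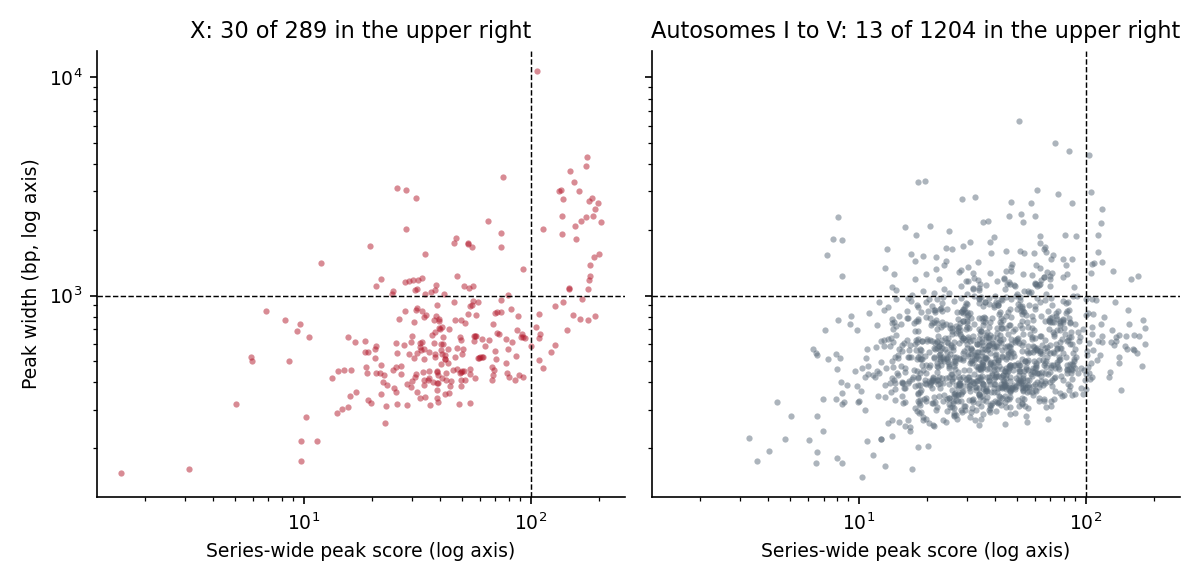
Peak width (bp, log axis) against series-wide peak score (log axis) for the sites on X (left, 289 points) and on the autosomes (right, 1204 points). Dashed lines mark a score of 100 and a width of 1000 bp; the upper right field holds 30 X sites and 13 autosomal sites.

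The replicate lists were then examined one at a time, each site being given the best scoring replicate peak that it meets. Since meeting such a peak chose the sites, these values describe them. In replicate 2 the X sites scored a median of 669 and the autosomal sites 422, and the medians of single autosomes ran from 394 on V to 468 on II. In replicate 1 the medians were 172 on X and 153 on the autosomes, and X came after chromosome IV with 194 and chromosome V with 175. Relative to the lists, the median X site ranked within the best 8.42% of the 5347 peaks of replicate 2 and within the best 42.1% of the 2001 peaks of replicate 1. For autosomal sites the same figures were 17.5% and 46.2%. The ratio of X to autosomal median scores was thus 1.59 in replicate 2 and 1.13 in replicate 1, and the difference between the replicates was not tested.

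At the top the replicates had many X sites in common. The scores of many peaks stop at 3100, which 36 peaks of replicate 1 and 42 peaks of replicate 2 reached or passed. Of these, 26 in replicate 1 and 33 in replicate 2 met an X site, against 9 and 9 that met an autosomal site. A score of 3100 or more in both replicates was found at 27 of the 289 X sites and at 3 of the 1204 autosomal sites. Among the 27 is the 160 bp site at X:11522594-11522753 (series-wide score 3.12). It touches the peaks of its strong neighbour, by 7 bp in replicate 1 and 49 bp in replicate 2. Among the 47 X sites with a series-wide score of 100 or more, 36 ranked in the first 100 of both replicate lists, and among the 65 such autosomal sites 17 did. At these strong sites the replicate peaks had median widths of 1198 bp on X and 642 bp on the autosomes in replicate 1. In replicate 2 the widths were 1671 bp on X and 763 bp on the autosomes. Since meeting these peaks chose the sites, their widths are no independent check of the width difference. Over all sites, replicate peaks of 1000 bp or more stood at 10.7% of X sites (7.41 to 14.9) and 6.89% of autosomal sites (5.53 to 8.47) in replicate 1, where chromosome V exceeded X with 13.3%. In replicate 2 they stood at 31.8% of X sites (26.5 to 37.5) and 21.3% of autosomal sites (19.1 to 23.8).

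Over the 289 X sites the replicate scores had a Spearman's rho of 0.64, against 0.48 over the autosomal sites, with single autosomes between 0.36 on IV and 0.66 on I. The replicate 2 list is the longer one, so its best 10% holds more peaks, and shares are compared between X and autosomes, not between replicates. Sites in the best 10% of both lists made up 15.2% of X sites (11.3 to 19.9) and 7.06% of autosomal sites (5.68 to 8.66). On X these 44 sites scored a median of 158 in the series-wide list and were a median of 1682 bp wide. The 85 such autosomal sites had medians of 106 and 847 bp. A further 113 X sites (39.1%, 33.4 to 45.0) were in the best 10% of replicate 2 alone, against 23.8% of autosomal sites (21.4 to 26.3). The best 10% of replicate 1 alone held 8 X sites (2.77%, 1.20 to 5.38), against 3.99% of autosomal sites (2.95 to 5.25). The 113 X sites seen high in replicate 2 alone scored a median of 51.2 in the series-wide list and were a median of 670 bp wide. The 286 such autosomal sites had higher medians, a score of 57.6 and a width of 710.5 bp.

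**Figure D3:**
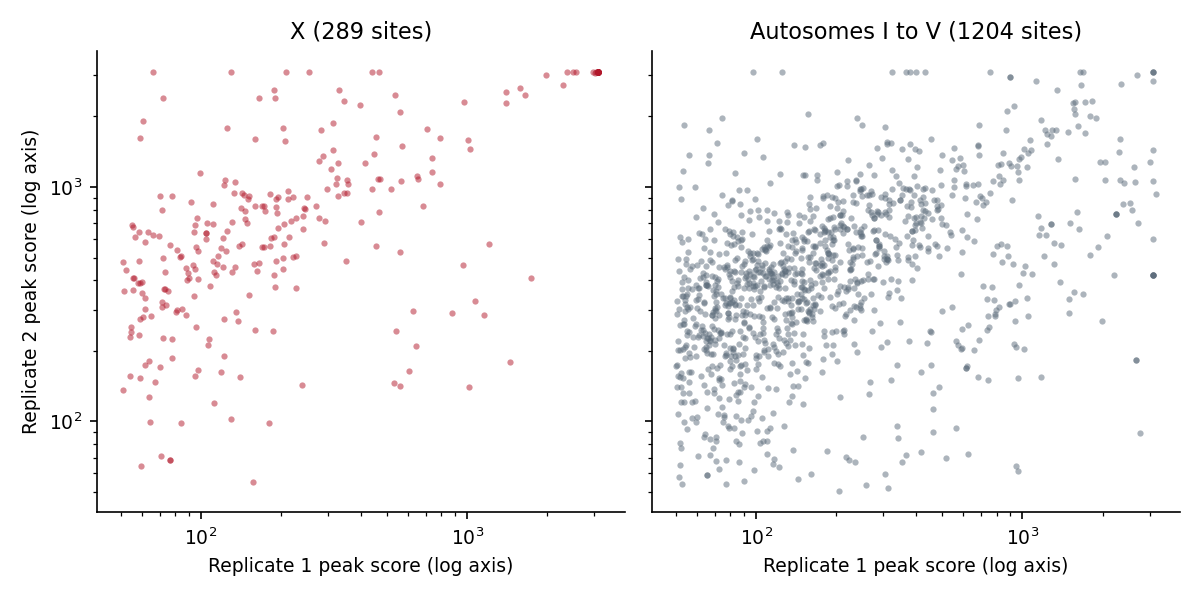
Score of the best replicate 2 peak against the score of the best replicate 1 peak (both log axes) at each site on X (left, 289 points) and on the autosomes (right, 1204 points). Points pile up at 3100 in both replicates in the upper right corner, which holds 27 X sites and 3 autosomal sites.

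The 20 highest scoring X sites had series-wide scores from 164 to 204 and widths from 771 to 4295 bp (median 1858 bp), and 16 of them were at least 1000 bp wide. In replicate 1 the score was 3100 at 15 of them and in replicate 2 at 17. The site with the highest score of all lay at X:805603-807767 and was 2165 bp wide in the series-wide list, 1271 bp in replicate 1 and 1945 bp in replicate 2. The second, at X:13513558-13515108, was 1551 bp wide in the series-wide list, 1252 bp in replicate 1 and 1372 bp in replicate 2. The third, at X:1388322-1390979, was 2658 bp wide in the series-wide list, 1684 bp in replicate 1 and 2536 bp in replicate 2. At each of these the replicate 1 peak was the narrowest of the 3, and the replicate score was 3100 in both.

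Several of the 20 were long stretches. The site at X:4207300-4211594 spanned 4295 bp, with a score of 178 and replicate peaks of 2321 bp in replicate 1 and 4120 bp in replicate 2. The site at X:14524049-14527965 spanned 3917 bp, scored 175, and met 2 peaks in replicate 1 and 1 in replicate 2. Sites of 2200 to 2785 bp were found at X:16055166-16057950 (score 186), at X:2995679-2998376 (180.4), at X:2363800-2366290 (192), at X:1625994-1628309 (189), at X:1344019-1346317 (175) and at X:1503036-1505235 (167). All 6 of them had a score of 3100 in both replicates. Of intermediate width were the sites at X:7180896-7182393 (1498 bp, score 191), at X:1908628-1910012 (1385 bp, score 182) and at X:15982618-15983845 (1228 bp, score 182).

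Other strong sites were short. The site at X:4395110-4395880 was 771 bp wide and scored 180.0, with scores of 1642 in replicate 1 and 2472 in replicate 2, the lowest replicate scores among the 20. The site at X:15736171-15736949 was 779 bp wide and scored 164, with 2287 in replicate 1 and 2716 in replicate 2. The site at X:1888231-1889035 was 805 bp wide and scored 193, with 3034 in replicate 1 and 3100 in replicate 2. The site at X:409640-410603 was 964 bp wide and scored 168, with 3100 in each replicate. A pair near the right end, at X:17543851-17545023 (score 180.3) and at X:17545083-17546154 (score 180.1), met a single replicate 2 peak of 2360 bp but separate replicate 1 peaks of 921 and 784 bp. The 3 narrowest of the 20, at 771 to 805 bp, came closest in width to the leading autosomal sites.

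The highest scoring site of each autosome was between 651 and 776 bp wide and stayed under 3100 in both replicates. The leading site of chromosome IV scored 183, with 1793 in replicate 1 and 2006 in replicate 2. The leading site of chromosome III scored 179, with 1897 in replicate 1 and 1967 in replicate 2. For chromosome II these values were 172, 1215 and 1749, for chromosome I 163, 1337 and 1757, and for chromosome V 156, 1572 and 2297. Above the best autosomal score stood 8 X sites.

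The widest X site, at X:16929237-16939926, covered 10690 bp with a score of 107 and met 4 peaks in replicate 1 and 3 in replicate 2, the largest of them 6815 bp in replicate 1 and 6866 bp in replicate 2. After the 4295 and 3917 bp sites above came one at X:9464353-9468059 (3707 bp, score 149, with 3100 in both replicates). The next, at X:6741415-6744899 (3485 bp, score 75.3), differed between the replicates, with 209 in replicate 1 and 3100 in replicate 2. It is 1 of 6 X sites, named after their values were seen, that met a replicate 2 peak at 3100 but had a replicate 1 score under 1000. The other 5 met 2 wide replicate 2 peaks: at X:3111699-3116867 a pair of sites met a peak of 5697 bp, with replicate 1 scores of 65.9 and 130, and at X:4142008-4148427 the remaining 3 sites met a peak of 6339 bp, with replicate 1 scores of 468, 255 and 439. The opposite case, a replicate 1 score of 1000 or more with a replicate 2 score under 500, was found at 5 X sites, among them the one at X:15482299-15484033, with 1734 in replicate 1 and 411 in replicate 2.

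At the lower end, the rule of 1 shared bp let in sites at the margin of a replicate peak. The least overlap was 7 bp with replicate 1, at the site at X:11522594-11522753 (160 bp, score 3.12), which touches the same replicate peaks at 3100 as its strong neighbour at X:11521474-11522541 (score 147). The next were 20 bp at the site at X:257023-257197 (score 9.75) and 25 bp at the site at X:16798462-16798963 (score 5.92). Just outside the rule, the X peak at X:13435469-13435631 (score 1.63) met replicate 2 and would have had to reach 73 bp further to meet replicate 1. The peaks at X:8020445-8021378 (score 5.01) and at X:4338857-4339136 (score 9.48) fell short of replicate 1 by 95 and 103 bp. The lowest scoring member of all lay at X:943689-943842 (154 bp, score 1.57), with 157 in replicate 1 and 55.4 in replicate 2. The lowest 5 also hold a site at the very start of X, X:1-318 (score 5.06), with 560 in replicate 1 and 527 in replicate 2, and one at X:14523331-14523853 (score 5.84), beside the 3917 bp site. The 5 narrowest sites were 154 to 215 bp wide, among them the one at X:256719-256933, whose replicate peaks are those of the site at 257023, and one at X:6286852-6287066 (score 9.78).

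Most X sites met exactly 1 peak of each replicate list, 263 of 289 (91.0%), against 94.1% of autosomal sites. Leaving out those whose replicate peak also met another site, 244 X sites (84.4%) and 89.8% of autosomal sites matched one to one. Because 1 replicate peak can span several sites, 6 X sites shared a replicate 1 peak with another site and 24 shared a replicate 2 peak (8.30%), against 4.49% of autosomal sites for replicate 2. Midpoints of X sites lay a median of 47.5 bp from the nearest replicate 1 midpoint and 43.0 bp from the nearest replicate 2 midpoint, against 46.0 and 39.0 bp for autosomal sites. Replicate 2 peaks were the broader ones, and 67.1% of X sites lay fully inside them, against 69.7% of autosomal sites. Inside replicate 1 peaks lay 6.23% of X sites and 14.9% of autosomal sites.

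Along X the sites were found throughout, with fewer in the middle. With the extent cut into 3 equal sections, the left one held 89 sites, the central one 81 and the right one 119, or 15.1, 13.7 and 20.1 sites per Mb. The central share of 28.0% (22.9 to 33.6) was the lowest of the 6 chromosomes, the autosomes lying between 32.1% on V and 37.0% on I, and the interval reached just past the 33.3% that an even spread gives. Over X peaks required to meet replicate 2 alone the central share was 32.4% (29.8 to 35.1), close to that value. The outermost 20% at either end together held 136 of the X sites, or 47.1% (41.2 to 53.0), against shares from 31.1% on V to 40.5% on IV. On X both ends contributed, with 64 sites on the left and 72 on the right. In full windows of 1 Mb the number of X sites ran from 6 to 27 with a median of 16. The fewest lay at X:5000001-6000000 and the most at X:14000001-15000000, followed by 26 at X:1000001-2000000.

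The strong sites showed the same outline. Of the 47 X sites scoring 100 or more, 17 lay in the left, 10 in the central and 20 in the right section. In the outermost 20% of either end lay 27 (57.4%, 42.2 to 71.7). The central share of 21.3% (10.7 to 35.7) did not set X apart, and its interval includes 33.3%. On the autosomes, with 8 to 20 strong sites each, this share ran from 0% on V to 53.85% on II. Chromosome I was also below X. The outer share was highest on X, with III close at 55.6% (9 sites) and II lowest at 15.4%. Of the 20 highest X sites, 10 lay in the leftmost 20% and 6 in the rightmost 20%. The window at X:1000001-2000000 alone held 9 strong sites and had a median score of 78.8, above all other full windows of X. The window at X:16000001-17000000 held 6, and 1 of the 17 full windows, at X:3000001-4000000, held 0. On the autosomes from 6 of 17 full windows (chromosome IV) to 14 of 20 (chromosome V) held 0 strong sites, and no full window held more than 5. X thus carried a strong site in 16 of 17 windows, at 2.65 strong sites per Mb against 0.788 on the autosomes.

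**Figure D4:**
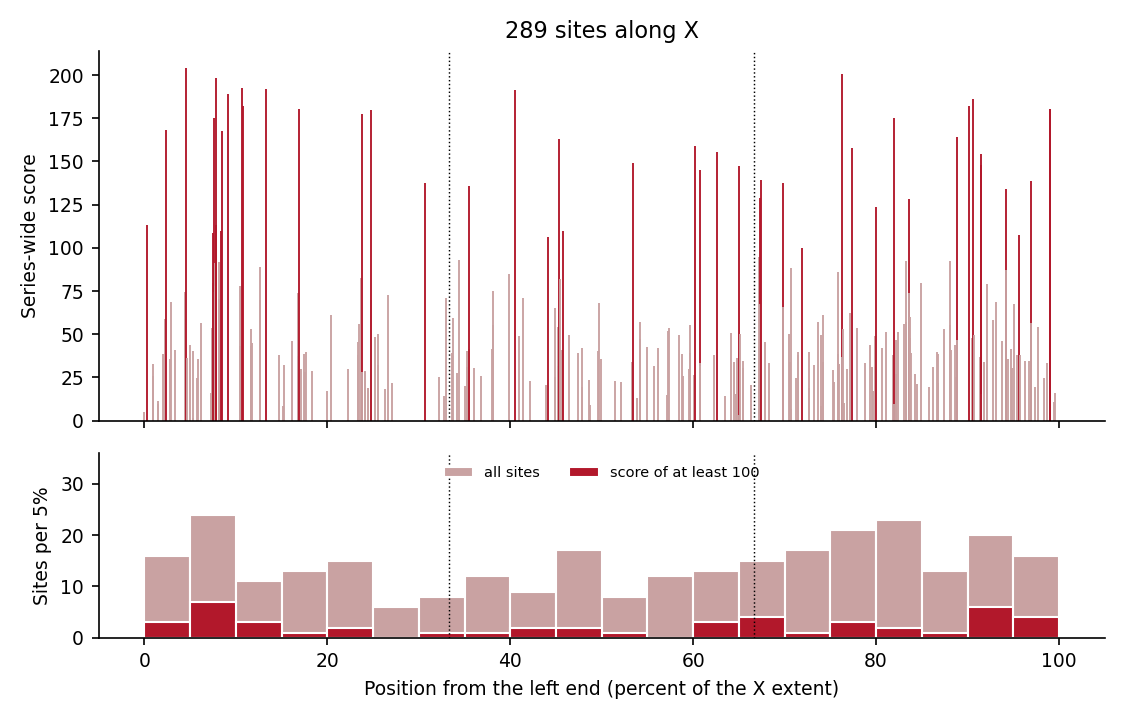
The 289 X sites by position (percent of the X extent from the left end), with each site's series-wide score as a line (top) and the number of sites per 5% of the extent (bottom). Sites scoring 100 or more are dark red and dotted lines part the 3 equal sections, which hold 17, 10 and 20 of them from left to right.

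Among all 289 sites, whatever their score, the longest stretches of X between neighbours still held other peaks. The longest was X:4789240-5428557 (639 kb) and held 54 X peaks that did not meet both replicates. The next were X:3606121-3945637 (339.5 kb, 36 such peaks) and X:6750586-7068301 (318 kb, 16 such peaks).

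The spacing of the strongest X sites resembled that of the autosomes. To keep numbers equal, the 30 highest scoring sites of each chromosome were used. The median distance between neighbouring midpoints was 397 kb on X (exact interval 146 to 825 kb), against medians from 312 kb on V to 383 kb on III. X had the longest median, and the 5 others lay within its interval. Divided by the mean spacing that 30 sites would have on the chromosome, the median was 0.67 on X, and from 0.45 on V to 0.83 on III. X distances ran from 1.18 kb to 2786 kb, 2 of 29 were under 5 kb and 7 were over 1 Mb. On the autosomes 1 to 4 distances were under 5 kb and 3 to 7 over 1 Mb. The lowest of the 30 X sites scored 139, whereas on the autosomes the lowest of 30 scored between 67.1 on III and 83.9 on IV. At an equal score limit the order turned: the 47 X sites scoring 100 or more had a median distance of 313 kb, the shortest of the 6 chromosomes. The next were 359 kb on IV (20 sites), 585 kb on II (13 sites), 689 kb on I (15 sites), 930.5 kb on III (9 sites) and 1239 kb on V (8 sites). These distances also depend on the number of sites, which was largest on X. Divided by the mean spacing of that many sites, the median was 0.83 on X, the highest of the 6. On the autosomes it ran from 0.41 on IV to 0.69 on I.

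**Figure D5:**
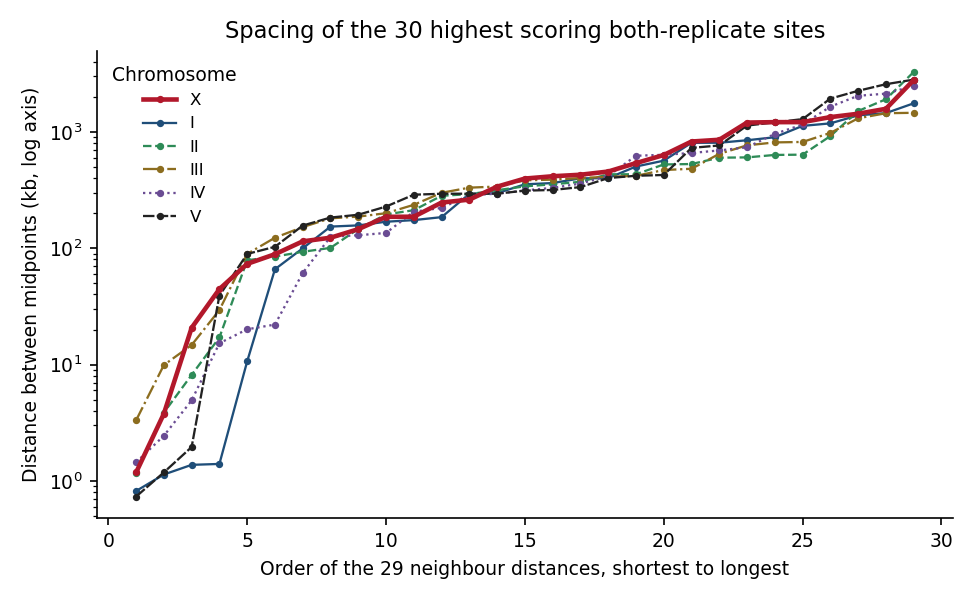
Distances between the midpoints of neighbouring sites (kb, log axis), sorted from shortest to longest, for the 30 highest scoring both-replicate sites of X (thick red) and of each autosome. The X curve runs close to the autosomal curves and lies above all of them in its middle part, with a median of 397 kb against autosomal medians between 312 and 383 kb.

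Of the 47 strong X sites, 26 had no other strong site within 100 kb. The other 21 formed 9 groups, of which the largest held 4 sites at X:1322776-1390979 (68.2 kb). Groups of 2 or 3 strong sites within 100 kb were found on every autosome as well. A group of 3 lay at X:16201895-16210120 (8.23 kb), with scores of 154, 148 and 109. Replicate 1 gave these 1979, 2490 and 793 from left to right, and replicate 2 gave 2996, 3100 and 1622. A pair at X:1385733-1390979 and the pair at the right end described above were the other strong X sites within 10 kb of each other. Over all 289 sites the median distance was 37.7 kb (26.8 to 49.8), against medians from 29.4 kb on III to 56.1 kb on V.

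Neighbouring peaks were more numerous around X sites, in about the proportion in which X carried more peaks as a whole. Within 5 kb of its edges an X site had 2.29 other series-wide peaks on average, and an autosomal site 1.75, with single autosomes between 1.54 on I and 1.85 on III and V. The ratio of these averages was 1.31, while X carried 99.4 series-wide peaks per Mb and the autosomes 73.5, a ratio of 1.35. Around the strong sites the averages were 2.06 on X and 1.95 on the autosomes. No neighbour within 5 kb was found for 22.1% of X sites (17.5 to 27.4) and for 26.6% of autosomal sites (24.1 to 29.2).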

How the data were processed

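REC-8 ChIP-seq was analysed from 3 deposited peak lists, 1 per ChIP sample and 1 for the series. Per the labels' protocols, crosslinking took 20 minutes in EGS, then 10 minutes with formaldehyde added, and 5 µg of antibody was used. The submitters' processing notes name BWA and ce10. The genome is WormBase WS220 and the peak callers MACS (replicate lists) and MACS v2 (series-wide list), per the file headers and source columns. Not given in the sources used here are the use of the input, read filters and the handling of repeats, all of which can change widths and numbers of peaks. Each score is the value deposited by the authors, with no read counts, so depth and its precision are unknown. Scores were compared within a list only.

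Overlaps (1 bp or more), medians, shares (exact Clopper-Pearson 95% intervals), exact order-statistic intervals of medians and midpoint distances were computed with Python 3.11.15, NumPy 2.4.6, pandas 2.3.3 and SciPy 1.17.1, and plots with matplotlib 3.10.9. The range of a ratio was set from opposite ends of the X and autosomal intervals and is not a 95% interval. The code was tested on simulated lists. A chromosome's extent runs to its last base in any of the lists. The 3 mitochondrial peaks were left out. Sites, lists and limits were chosen with earlier results of these data known. Named sites are the 20 highest, 5 lowest, 5 widest and 5 narrowest on X, the 3 just inside and 3 just outside the rule, the 3 longest gaps and the leading site of each autosome. Sites whose replicates differ most, those of the groups of strong sites and the strong neighbour of the site of least overlap were named after their values were seen. No gene or sequence was used, since the gene table at hand is of another assembly. Alternatives covered the overlap rule, score limits, list lengths, single replicates, merging and section limits.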

Additional observations from a re-analysis of the deposited data

How the results depend on the processing

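Ratios of shares at score and width limits were added, with their alternatives, after the values were seen. The spacing of the 30 highest X sites stayed within its wide interval (16 comparisons over 2 measures), which is a weak check. Its median was the same 397 kb for peaks at or above the median score, equal list lengths, merging and without either replicate. These settings left the highest scoring sites almost the same, so they could hardly move it. For 30 sites the 2 measures are the same distances on different scales. The ratio for sites passing both limits ran from 4.51 to 10.45 over 8 alternatives. No such ratio is given at limits of 150 and 1500 bp. Leaving out 1 replicate gave 371 to 1235 X sites, 21.1% to 70.1% of X peaks, a median score of 12.2 to 34.4, a median width of 354 to 536 bp, a ratio of X to autosomal median width of 1.02 to 1.11, and one of median score of 0.873 without replicate 1 and 1.13 without replicate 2. The median score thus reversed when replicate 1 was not required, while the ratio of shares scoring 100 or more was then 2.41. With a reciprocal overlap of 50% the X share was 12.1%, the median score 49.1 and rho 0.74. With peaks at or above the median score there were 159 X sites (19.0%), with a median score of 67.8, a median width of 797 bp and a width ratio of 1.30. Equal list lengths gave 14.6%. With peaks under 1 kb apart merged the share was 19.8%, the median width 760.5 bp and the ratio of shares of 1000 bp or more 1.12 (0.882 to 1.41). A central section of 50% of the extent held 40.5% of X sites (34.8 to 46.4) and one of 25% held 19.7% (15.3 to 24.8). Both intervals lie below an even spread, which that of the 33.3% section does not. Without replicate 1 the 33.3% section held 32.4% of X sites (29.8 to 35.1), close to an even spread. Without replicate 2 it held 28.3% (23.8 to 33.2). X held 289 of all 1493 sites found in both replicates. It held 60.0% of the top 50 sites, 46.0% of the top 100, 32.0% of the top 200 and 22.8% of the top 500. At limits of 150 and 1500 bp the ratio of high-scoring shares was 6.94. For these shifts the cause was not tested. No paired analysis was possible because the files hold peaks of the ChIP samples alone. Since depth is unknown, a missing peak says little, above all in replicate 1, the shortest list.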
